A study of Mus musculus with 24 samples.

Results

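Livers of wild-type mice reared on a vitamin A deficient diet were compared between weaning (postnatal day 21, PN21) and birth (PN0). The comparison was given by the sample labels and took in 5 of the 24 arrays of the study: 3 of PN21 and 2 of PN0 livers. The mice of these 5 arrays were wild-type C57Bl/6J. Their dams ate a standard breeder diet until embryonic day 4.5 and then a defined vitamin A deficient diet, which mother and young kept until the livers were taken. PN21 livers came from males. PN21 samples 1 and 2 were each a pool of 2 mice, and PN21 sample 3 was 1 mouse. Each PN0 sample pooled the livers of a litter, with the sex of the pups not stated, so age and sex makeup cannot be told apart. The same ages were also measured in 2 other settings, used here only for contrast. These were wild-type mice on the matched vitamin A sufficient diet (3 PN21 arrays of 1 pool of 4 males, and 2 PN0 litters) and Cyp1b1-null mice on the deficient diet (2 PN21 pools of males and 2 PN0 litters). Cyp1b1 is a cytochrome P450 that can form retinoic acid outside the classical dehydrogenase route. Total RNA was labelled with 1 dye and hybridised to Agilent whole-genome mouse arrays.

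At birth the mouse liver is still a blood-forming organ: red cell precursors, megakaryocytes and myeloid cells share the tissue with hepatocytes that are dividing. In the weeks to weaning blood formation moves to the marrow and spleen, hepatocytes leave the cell cycle, fetal genes are shut off, and the enzymes of drug, steroid and amino acid handling are switched on. The liver also stores most of the body's vitamin A as retinyl esters, sends retinol out bound to retinol-binding protein, and oxidises it through retinol and retinal dehydrogenases to retinoic acid, the ligand of the RAR and RXR nuclear receptors.

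A level below is log2 of a gene's processed signal minus the log2 of its array's 75th percentile. A difference is the PN21 mean minus the PN0 mean on that scale, so 1 is a doubling and a positive value means higher at PN21. Genes were tested with limma in a fit of all 10 groups of the study, and a Benjamini-Hochberg adjusted p under 0.05 over 20520 genes counts as a rise or a fall. The adjusted p-values measure the spread between arrays, which stood for few pools and litters. A probe's level depends on its own binding, so levels are set against each other within a gene only.

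Over the 24 arrays the 75th percentile signal ran between 155.2 and 1963, and 33.6% to 90.2% of the probes were well above background. PN21 sample 3 stood apart. Its median correlation with the other arrays of its age was 0.784, and it correlated at 0.862 and 0.811 with PN21 samples 1 and 2, which correlated at 0.966 with each other. The PN0 litters correlated at 0.961 with each other. A sufficient-diet array of another Cyp1b1-null line (R-Cyp1b1-null) stood apart more (median correlation 0.542) and entered the fit's estimate of spread. No slide held both ages: the PN21 samples lay on slides 1, 2 and 3, and both PN0 litters on slide 5. PN21 sample 3 and the PN0 litters were scanned on the same day, so the difference of sample 3 alone from PN0 is the value within a scan day.

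Between birth and weaning 904 genes rose (4.41% of 20520) and 1403 fell (6.84%), 2307 in all (11.2%). The called rises had a median of 2.38 and the called falls a median of -2.28, while all genes together had a median difference of 0.18. Without PN21 sample 3, 792 rose (3.86%) and 964 fell (4.70%), 1756 in all (8.56%). Of the 2307 calls 1505 were kept without it, and all 2307 had the same sign. Leaving out the R-Cyp1b1-null array alone gave 7347 calls, and leaving out both arrays gave 6973 (3392 higher, 16.5%, and 3581 lower, 17.5%, 34.0% in all), among them 2306 of the 2307. Leaving out PN21 sample 1 gave 487 higher (2.37%) and 1014 lower (4.94%), 7.31% in all, and PN21 sample 2 gave 659 higher (3.21%) and 1211 lower (5.90%), 9.11% in all. Leaving out PN0 litter 1 gave 435 higher (2.12%) and 772 lower (3.76%), 5.88% in all, and PN0 litter 2 gave 124 higher (0.604%) and 360 lower (1.75%), 2.36% in all, so the count depends on single arrays. A list's count with each array left out is given below in the order PN21 samples 1, 2 and 3, then PN0 litters 1 and 2. The groups did not overlap, with every PN21 level above, in 23.8% of 20203 genes with a value on all 5 arrays, and with every PN21 level below in 28.7%. Of the genes that rose 478 were not well above background on any PN0 array, and of those that fell 64 were not well above background on any PN21 array. For these the fold is given as a lower bound, from the brighter group's mean and the array's lowest signal above background. A difference printed beside such a bound is of the measured levels and is not itself a bound.

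**Figure D1:**
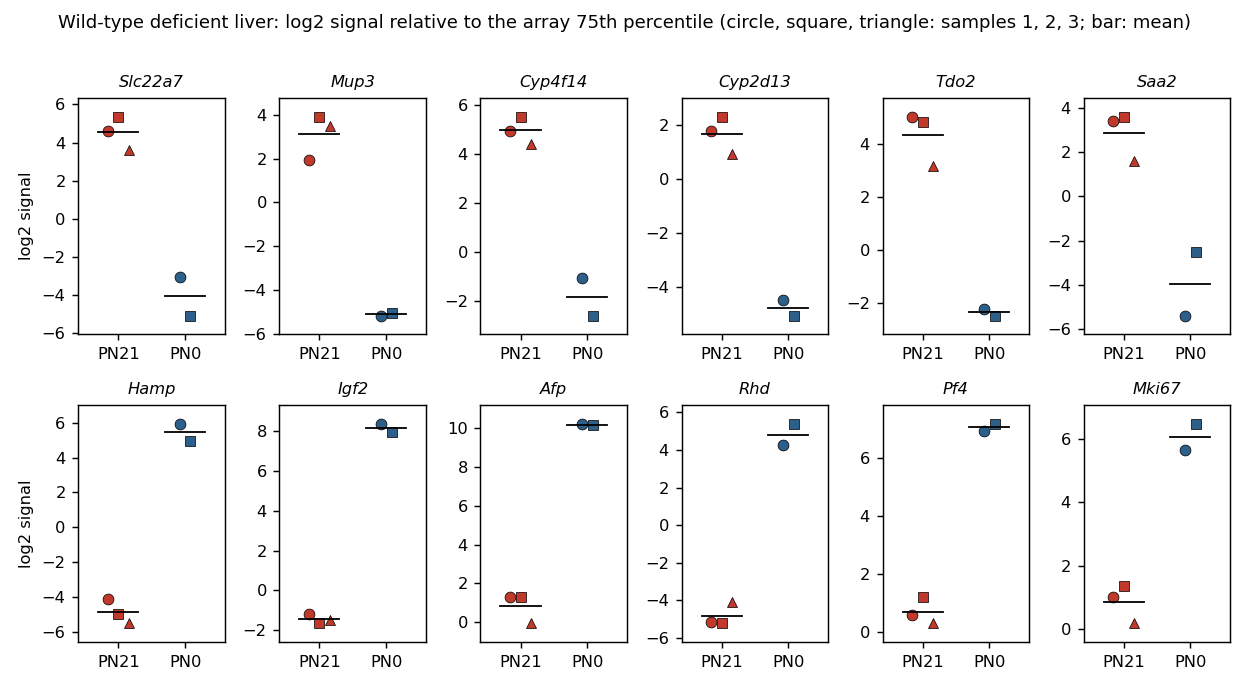
Levels of 12 genes in wild-type deficient liver, as log2 signal relative to the array's 75th percentile, with PN21 left of PN0 and each panel on its own scale. Circles, squares and triangles are samples 1, 2 and 3, and bars are group means. In all 12 genes every PN21 sample lies on one side of both PN0 litters, and PN21 sample 3 is the lowest PN21 sample in all but Mup3, Igf2 and Rhd.

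The deepest falls were in genes of blood cells. Among erythroid markers 29 of 42 measured members fell and none rose, against 6.84% of all genes that fell, with a median of -3.44. The falls numbered 24, 25, 28, 26 and 16 with each array left out. Rhd, which carries the Rh blood group antigen on red cells (chromosome 4), had levels of -5.17, -5.23 and -4.11 in PN21 livers, against 4.26 and 5.38 in PN0 livers. It was near the floor of the array in every PN21 sample and bright in both litters. The fall was at least 321-fold (-9.66, SE 0.93, adjusted p = 1.03e-05). Hemgn, the erythroid nuclear protein hemogen, was lost in the same way (-5.08, -4.88 and -5.66 in PN21 livers, against 3.53 and 5.41 in PN0 livers), lower by at least 252-fold with an adjusted p of 1.37e-06. Its other 2 probes gave -3.13 and -2.57, so the size depends on the probe and the direction does not. Ahsp, which stabilises free alpha globin, was still measured at PN21 (-1.78, -0.60 and -1.07 in PN21 livers, against 6.74 and 7.93 in PN0 livers) and fell by 8.48 (SE 0.65, adjusted p = 1.28e-06). Kel, the Kell blood group protein, fell by 8.0 (-4.38, -5.26 and -2.28 in PN21 livers, against 3.39 and 4.66 in PN0 livers, adjusted p = 4.32e-05). All 3 samples were below both litters in each of these.

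The globin genes Hba-a1 and Hbb-bt moved less and did not pass the test, and their signal was high on every array. Hba-a1 had levels of 7.84, 8.59 and 5.89 in PN21 livers, against 9.21 and 10.11 in PN0 livers (-2.22, SE 1.28, adjusted p = 0.253) and Hbb-bt of 8.89, 9.24 and 8.19 in PN21 livers, against 10.69 and 11.01 in PN0 livers (-2.08, SE 0.89, adjusted p = 0.139). Hba-a1 and Hba-a2 are near-identical copies that a probe cannot tell apart, and these members, chosen after their values were seen, are given because mature red cells carry globin transcripts without the precursors. Summed over the list, the linear signal was 446 to 1360 times the array's 75th percentile in PN21 livers, against 3360 to 5636 in PN0 livers. In whole tissue, fewer cells of a type and less RNA per cell cannot be told apart.

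Platelet and neutrophil genes fell with the erythroid ones. Of 17 megakaryocyte and platelet markers 10 fell, against 6.84% of all genes, and none rose (median -2.62). Pf4, the platelet granule chemokine platelet factor 4, had levels of 0.60, 1.20 and 0.31 in PN21 livers, against 6.92 and 7.16 in PN0 livers (-6.33, SE 0.55, adjusted p = 2.94e-06). Also lower were Ppbp, another platelet granule chemokine (-7.01, adjusted p = 7.07e-05), the platelet glycoprotein gene Gp9 (-5.59, adjusted p = 7.07e-07) and Treml1, a platelet granule receptor (-5.50, adjusted p = 2.48e-06). Neutrophil markers had the lowest median of the lists, -5.77, with 16 of 20 lower and none higher. S100a8, a calcium-binding protein abundant in neutrophils, had levels of 0.29, 0.24 and -1.35 in PN21 livers, against 6.82 and 7.56 in PN0 livers (-7.46, SE 0.59, adjusted p = 1.37e-06). Chil3, a chitinase-like protein of neutrophils and some macrophages, fell by 7.55 (adjusted p = 1.19e-05). Summed neutrophil signal was 14.1 to 15.3 in PN21 livers, against 1498 to 1998 in PN0 livers.

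A cluster of cysteine protease inhibitors of the stefin A family on chromosome 16, known from neutrophils, held 5 of the 10 largest falls. Stfa1 had levels of -2.51, -2.60 and -1.16 in PN21 livers, against 8.13 and 8.57 in PN0 livers (-10.44, SE 0.82, adjusted p = 1.37e-06). Csta1, with levels of -1.69, -2.53 and -1.71 in PN21 livers, against 8.53 and 8.99 in PN0 livers, gave the largest fall of any named gene (-10.74, SE 0.68, adjusted p = 1.94e-07), but its second probe gave 1.34, so its call rests on 1 probe. Csta2 (-9.25, adjusted p = 5.86e-08), Cstdc5 (-9.26, adjusted p = 2.24e-06), Stfa2l1 (-9.09, adjusted p = 1.28e-05) and Stfa2 (-8.10, adjusted p = 3.62e-05) fell with them. These genes are near-identical copies, so their signals may be shared between probes and they do not count as separate falls.

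Precursor and B-lineage genes fell in part. Of 17 stem and progenitor markers 5 fell, against 6.84% of all genes, and none rose. Myb, a transcription factor of blood progenitors, had levels of -1.96, -2.23 and -1.08 in PN21 livers, against 2.77 and 2.28 in PN0 livers (-4.28, SE 0.71, adjusted p = 0.00123), and 1 of its other 3 probes, at -0.28, showed little difference. Cd34, a surface protein of progenitors and endothelium (-2.58, adjusted p = 0.00118), fell as well. Gfi1, a repressor in myeloid cells, was not well above background in any PN21 sample and fell at least 6.7-fold (adjusted p = 0.00323). Of 19 B cell markers 6 fell, against the same share of all genes. Vpreb3, part of the B cell precursor programme, had levels of -0.63, -0.76 and -2.27 in PN21 livers, against 4.26 and 4.88 in PN0 livers (-5.79, SE 1.03, adjusted p = 0.00196), and Ighm, the immunoglobulin mu heavy chain, levels of 1.89, 2.22 and 1.05 in PN21 livers, against 5.74 and 5.84 in PN0 livers (-4.07, SE 0.57, adjusted p = 0.000329). Cd79b, of the B cell receptor (-3.18, adjusted p = 0.000171), and Fcrla (-3.11, adjusted p = 0.00286) fell with them.

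Other resident and immune cell lists held few calls, apart from T and NK cell markers. Of 22 Kupffer cell and macrophage markers 3 fell, against 6.84% of all genes: Lyz2 (-3.18), Lyz1 (-2.34) and Spic (-1.30). Lyz2 had a second probe at -0.16. The list's median was -0.47, and 0.25 without PN21 sample 3, when 2 of the members passed, and 1 and 0 without PN0 litters 1 and 2. T and NK cell markers held 4 rises and 3 falls among 27 members, against 4.41% and 6.84% of all genes, with a median of 0.84. The rises numbered 3, 3, 2, 1 and 0 with each array left out, and the falls 3, 3, 1, 1 and 0. Cd2, Cd8a and Zap70, of the T cell surface and its receptor signalling, were not above background on the PN0 arrays, and rose at least 1.84-fold, 1.95-fold and 5.32-fold. Without sample 3 the adjusted p was 0.0545 for Cd8a and 0.0535 for Zap70. Gzma, a granzyme of cytotoxic cells, fell by 2.18 (adjusted p = 0.00796). Among class II genes Ctss fell (-2.60, adjusted p = 0.0402, and 0.14 without sample 3), among sinusoidal endothelial markers Lyve1 fell (-2.96, adjusted p = 0.0204, and 0.0729 without sample 3, second probe 0.23), and among stellate markers Pdgfra fell (-1.85, adjusted p = 0.00621). No member of these 3 lists passed without PN0 litter 2. None of 14 cholangiocyte markers passed.

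Cell cycle genes fell together. Of 55 members 39 fell and none rose, against 6.84% of all genes, and the falls numbered 30, 38, 34, 25 and 16 with each array left out. The median was -3.42, and -3.47, -3.10 and -3.81 in PN21 samples 1, 2 and 3 each against the PN0 mean. Mki67, the proliferation antigen Ki-67 (chromosome 7), had levels of 1.00, 1.36 and 0.18 in PN21 livers, against 5.65 and 6.47 in PN0 livers (-5.21, SE 0.93, adjusted p = 0.00198). E2f2, an E2F factor abundant in red cell precursors, had levels of 0.13, 1.00 and 0.03 in PN21 livers, against 5.43 and 6.90 in PN0 livers (-5.78, SE 0.84, adjusted p = 0.000427). Plk1, a mitotic kinase, fell by 5.11 (SE 0.87, adjusted p = 0.00146). Cenpf, a kinetochore protein, fell by 5.13 (adjusted p = 0.000535), but a second probe gave 0.09. All 3 PN21 samples lay below both litters in the 4 genes. The list does not say which cells divided: E2f2 also marks the red cell lineage, whose markers fell in the same livers. The part of blood-forming cells in the fall of the cell cycle genes was not tested.

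Promoter sequence upstream of the RefSeq start site (GRCm38.p6) is shown for 3 of these genes, because mitotic genes that move together are known for repeated CCAAT boxes and cell cycle homology regions. Ccnb2, cyclin B2, was chosen for its promoter after its values were seen (levels of 0.26, 0.42 and -0.39 in PN21 livers, against 4.29 and 5.45 in PN0 livers, difference -4.78, SE 0.86, adjusted p = 0.00201). Each stretch is the gene's sense strand from 150 bases before the start site to the base before it, and capitals mark CCAAT or TTTGAA on either strand.
Ccnb2, chr9:70421555-70421704, minus strand: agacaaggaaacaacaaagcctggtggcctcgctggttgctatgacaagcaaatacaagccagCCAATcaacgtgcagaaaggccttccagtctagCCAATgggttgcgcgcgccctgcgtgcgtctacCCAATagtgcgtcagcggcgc
Cenpf, chr1:189688087-189688236, minus strand: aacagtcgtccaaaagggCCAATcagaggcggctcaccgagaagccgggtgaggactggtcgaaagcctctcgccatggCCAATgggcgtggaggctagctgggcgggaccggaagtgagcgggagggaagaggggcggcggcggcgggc
Mki67, chr7:135716380-135716529, minus strand: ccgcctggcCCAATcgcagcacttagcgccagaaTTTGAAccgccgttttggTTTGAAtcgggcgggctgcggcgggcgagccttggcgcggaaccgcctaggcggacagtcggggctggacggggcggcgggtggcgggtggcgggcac
The Ccnb2 stretch has 3 CCAAT boxes, at -87, -54 and -21, Cenpf has 2, at -132 and -71, and Mki67 has 1 at -141 followed by TTTGAA at -116 and -98. In windows of 300 bases (250 before to 50 after the start site), CCAAT was found in 32 of the 43 cell cycle genes with a window (74.4%), against 41.1% of all 27025 windows. At least 2 boxes were found in 51.2% of the cell cycle windows, against 13.3% of all. TTTGAA was found in 51.2%, against 20.2% of all. A match is a description of the letters and not a site.

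For the erythroid genes the searched letters were AGATAA, a form of the site of GATA factors, which drive red cell genes. The stretches of Rhd and Kel, both among the deepest falls, are shown in the same way with AGATAA in capitals.
Rhd, chr4:134864386-134864535, plus strand: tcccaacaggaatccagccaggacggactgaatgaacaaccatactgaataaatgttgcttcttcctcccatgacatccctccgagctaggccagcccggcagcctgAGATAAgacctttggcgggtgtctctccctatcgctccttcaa
Kel, chr6:41704326-41704475, minus strand: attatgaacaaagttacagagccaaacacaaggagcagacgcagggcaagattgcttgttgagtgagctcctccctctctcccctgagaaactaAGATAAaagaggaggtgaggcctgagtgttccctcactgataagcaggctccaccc
Rhd has AGATAA at -43 and Kel at -56. It was found in 10 of 29 erythroid windows (34.5%), against 12.7% of all windows. Gata1 itself, the red cell GATA factor, had levels of -1.89, -3.46 and -0.17 in PN21 livers, against -0.34 and 0.26 in PN0 livers and did not pass the test (adjusted p = 0.212).

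Fetal and imprinted genes fell too. Of 30 fetal liver genes 15 fell, against 6.84% of all genes, and none rose (median -1.80). With each array left out 15, 13, 12, 9 and 9 fell. Igf2, the imprinted fetal growth factor on chromosome 7, had levels of -1.21, -1.64 and -1.48 in PN21 livers, against 8.35 and 7.97 in PN0 livers (-9.60, SE 0.53, adjusted p = 5.86e-08), and its second probe gave -6.84. Afp, alpha-fetoprotein, the main plasma protein of the fetus (chromosome 5), had levels of 1.27, 1.29 and -0.06 in PN21 livers, against 10.23 and 10.17 in PN0 livers (-9.36, SE 0.79, adjusted p = 2.48e-06). The PN0 litters lay within 0.4 of each other in both genes, far from every PN21 sample. Dlk1, an imprinted membrane protein of hepatoblasts, fell by 8.58 (-2.40, -3.51 and -2.98 in PN21 livers, against 5.25 and 5.97 in PN0 livers, adjusted p = 2.4e-06), with a second probe at -3.78. Grb10, an imprinted adaptor that restrains insulin and growth factor signalling, fell by 4.85 (adjusted p = 0.000183), with other probes at -2.01 and -1.10. Afp was still above background on all 3 PN21 arrays.

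Hamp, the liver hormone hepcidin that blocks iron export from cells, was among the 10 largest falls. Its levels were -4.10, -4.98 and -5.50 in PN21 livers, against 5.93 and 4.96 in PN0 livers. It was not well above background in any PN21 sample and bright in both litters, a fall of at least 494-fold (-10.30, SE 1.53, adjusted p = 0.000495). Of 28 iron and heme genes 4 fell, Hamp included, against 6.84% of all genes, and none rose. The others were Id1 (-2.80, adjusted p = 0.0268) and Smad7 (-1.31, adjusted p = 0.0462), both induced by the BMP signal that also acts on hepcidin, and Flvcr1, a heme exporter (-1.51, adjusted p = 0.0257, second probe -0.07). Without PN0 litter 1, and without litter 2, 1 member of the list passed. Without PN21 sample 3 Hamp passed and these 3 did not, at 0.0869, 0.125 and 0.0801.

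Several lists of metabolic genes held a few falls. Acot1, a cytosolic acyl-CoA thioesterase induced by fasting and PPAR alpha, had levels of 0.02, 0.19 and -0.17 in PN21 livers, against 5.22 and 6.46 in PN0 livers (-5.82, SE 0.87, adjusted p = 0.00053). Pdk4, the kinase that shuts pyruvate dehydrogenase when fat is burned, had levels of -1.02, 0.16 and -1.29 in PN21 livers, against 2.71 and 3.75 in PN0 livers (-3.95, SE 0.70, adjusted p = 0.00186). They were the only falls among 35 fatty acid oxidation genes, a share near the 6.84% of all genes, and the list's median was -0.79. Cidec, a lipid droplet protein (-5.09, adjusted p = 0.000249), and G6pdx, which feeds NADPH to fat synthesis (-3.03, adjusted p = 0.00176), fell. Igfbp1, an IGF-binding protein raised in fasting, fell by 3.16 (adjusted p = 0.0156, and 0.0564 without PN21 sample 3). Ppp1r3g, a glycogen-targeting subunit of protein phosphatase 1, had levels of -2.22, -2.13 and -2.00 in PN21 livers, against 1.24 and 3.28 in PN0 livers (-4.38, SE 0.72, adjusted p = 0.00111). Mt2, a metallothionein (-4.16, adjusted p = 0.00534), and Il1rn, the interleukin 1 receptor antagonist (-5.01, adjusted p = 0.000883), fell too, with a second Il1rn probe at 0.15.

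**Figure D2:**
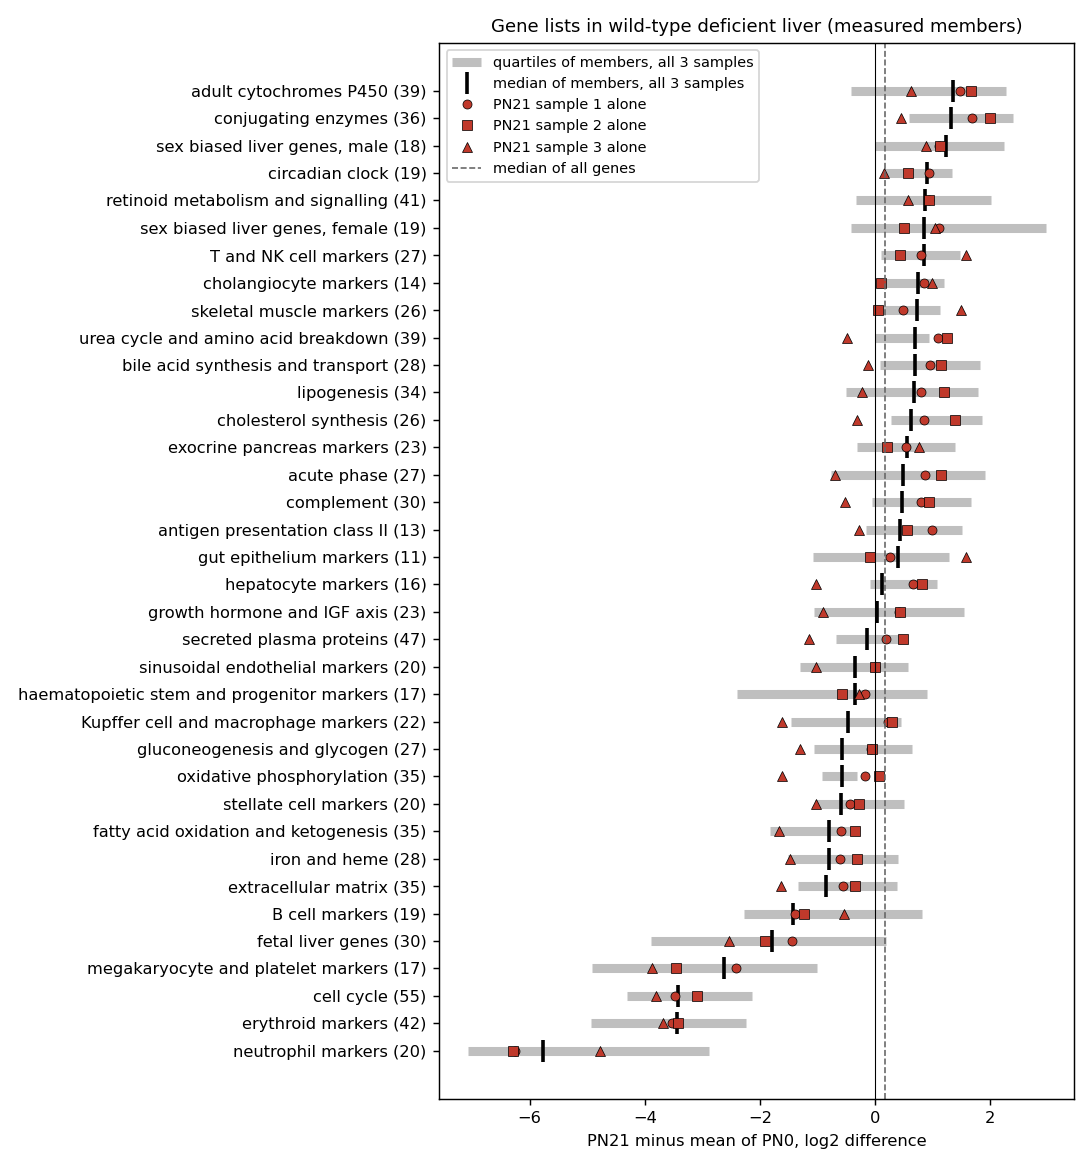
Median difference (PN21 minus PN0, log2) of each gene list in wild-type deficient liver, with the number of measured members in parentheses. Bars span the quartiles of the members, ticks mark the median with all 3 PN21 samples, and symbols the median for each PN21 sample alone against the PN0 mean. Neutrophil, erythroid, cell cycle, megakaryocyte and fetal lists lie lowest in all 3 samples, and sample 3 lies left of the other samples for most hepatocyte programmes.

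Some transporters of organic anions gave large rises. Slc22a7, the organic anion transporter OAT2 (chromosome 17), had levels of 4.63, 5.37 and 3.61 in PN21 livers, against -3.03 and -5.07 in PN0 livers, not well above background in either litter and bright in every PN21 sample. The rise was at least 205-fold (8.59, SE 0.93, adjusted p = 3.01e-05). Slc22a29, of the same transporter family, rose at least 25-fold (adjusted p = 0.000287). Slco1a4, an uptake carrier of bile acids and other organic anions, had levels of 2.84, 2.95 and 0.82 in PN21 livers, against -2.75 and -2.53 in PN0 livers (4.84, SE 0.77, adjusted p = 0.000873). All PN21 samples were above both litters in these genes. Among 28 bile acid genes 3 rose, against 4.41% of all genes, none fell and 25 did not pass (median 0.69). The rises were Slco1a4, Akr1c6, a hydroxysteroid dehydrogenase (4.06), and Abcg8, of the sterol exporter to bile (2.73). These numbered 2, 2, 4, 3 and 1 with each array left out.

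Cytochrome P450 genes moved unevenly. Of 39 members 9 rose and 2 fell, with a median of 1.35, against 4.41% and 6.84% of all genes. The rises numbered 4, 5, 11, 6 and 1 with each array left out and 22 without both arrays of low correlation. Cyp4f14, an omega-hydroxylase of fatty acids, had levels of 4.94, 5.51 and 4.39 in PN21 livers, against -1.09 and -2.61 in PN0 livers (6.79, SE 0.91, adjusted p = 0.000212). Cyp1a2, which handles caffeine and aryl amines, had levels of 2.68, 3.23 and -0.62 in PN21 livers, against -3.90 and -3.15 in PN0 livers, a rise of at least 32-fold (adjusted p = 0.00819). PN21 sample 3 was over 3 below the other PN21 samples for it and still above both litters. Cyp2c54 rose at least 4.71-fold (adjusted p = 0.00294), Cyp2b13 by 3.33 (adjusted p = 0.0171), and Cyp2d13, outside the list, at least 30.8-fold (1.76, 2.30 and 0.90 in PN21 livers, against -4.49 and -5.05 in PN0 livers, adjusted p = 1.32e-05). Cyp4a12a, a male-biased fatty acid hydroxylase of adult liver, was lower and not above background at PN21 (-3.38, -3.63 and -3.59 in PN21 livers, against -1.51 and -0.31 in PN0 livers), at least 5.48-fold (adjusted p = 0.0112). P450 genes of 1 subfamily are close copies, so single members are uncertain.

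Of 36 conjugating enzymes 7 rose and none fell (median 1.32), against 4.41% and 6.84% of all genes. The rises numbered 4, 4, 11, 7 and 1 with each array left out and 26 without both arrays of low correlation. Nnmt, which methylates nicotinamide, had levels of 4.50, 3.74 and 2.70 in PN21 livers, against -1.57 and -2.00 in PN0 livers (5.43, SE 0.69, adjusted p = 0.000131). Glyat, which joins glycine to acyl groups such as benzoate, had levels of 3.34, 3.49 and 0.86 in PN21 livers, against -0.10 and -2.85 in PN0 livers (4.04, SE 1.03, adjusted p = 0.0193). Gstm6, a glutathione transferase, rose at least 10.9-fold (adjusted p = 0.00451) and Ugt3a1, a sugar transferase, by 3.41 (adjusted p = 0.00825). By the probe that stood for each gene, PN21 samples lay above PN0 litters. A second Gstm6 probe gave 0.97, with PN21 sample 3 (-5.82) below both litters (-5.55 and -5.47), so the size for Gstm6 depends on the probe.

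Lipid, amino acid and glycogen lists held few rises, and their single large ones are given here. Thrsp, a spot 14 protein of fat synthesis, rose by 4.37 (adjusted p = 0.041, and 0.0524 without sample 3). Lipogenesis genes numbered 2 rises and 3 falls among 34, near the shares of all genes. Of 26 cholesterol synthesis genes 3 rose, against 4.41% of all genes, and none fell. The rises were Mvk, mevalonate kinase (3.21), Acat2, an acetoacetyl-CoA thiolase (2.62), and Insig1, the sterol sensor that holds back SREBP (2.37). Insig1 had a limma adjusted p of 0.0308, and of 0.136 with the mean of the probes, its second probe giving 1.57. The list's rises numbered 1, 1, 4, 1 and 0 with each array left out. Tdo2, the first step of tryptophan breakdown (chromosome 3), had levels of 5.04, 4.82 and 3.15 in PN21 livers, against -2.25 and -2.49 in PN0 livers (6.71, SE 1.06, adjusted p = 0.000818). Prodh, proline dehydrogenase, rose by 4.20 (adjusted p = 0.00166). They were the 2 rises among 39 urea cycle and amino acid genes, a share near the 4.41% of all genes. Gpt, an alanine aminotransferase, rose by 4.25 (adjusted p = 0.0215) and Ppp1r3b, the main hepatic glycogen-targeting subunit, by 3.91 (adjusted p = 0.00418), opposite to Ppp1r3g.

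Of 47 secreted plasma protein genes 3 rose and 1 fell, shares near or below the 4.41% and 6.84% of all genes. Serpina6, the corticosteroid-binding globulin, had levels of 7.25, 7.35 and 6.11 in PN21 livers, against 2.17 and 1.74 in PN0 livers (4.95, SE 0.86, adjusted p = 0.00162). F5, coagulation factor V, rose by 2.51 (adjusted p = 0.0263). Apoc2, the cofactor of lipoprotein lipase, fell by 2.49 (adjusted p = 0.04, and 0.117 without PN21 sample 3). Of 30 complement genes 5 rose and none fell, against 4.41% of all genes, and the rises numbered 2, 2, 5, 1 and 1 with each array left out. C9, of the membrane attack complex, had levels of 1.45, 1.11 and -1.06 in PN21 livers, against -4.14 and -5.33 in PN0 livers, a rise of at least 13.8-fold (adjusted p = 0.000883). C4bp, a complement inhibitor, rose by 2.95, Mbl1, a mannose-binding lectin, by 2.90, and C7 at least 2.3-fold, the last with an adjusted p of 0.0549 without sample 3. Acute phase genes went both ways, 6 higher and 4 lower of 27, against 4.41% and 6.84% of all genes. The rises numbered 3, 3, 7, 2 and 2 with each array left out, and the falls 4, 4, 4, 4 and 1. Saa2, a serum amyloid A protein, had levels of 3.40, 3.60 and 1.60 in PN21 livers, against -5.39 and -2.51 in PN0 livers (6.82, SE 1.04, adjusted p = 0.000597). Orm2, an orosomucoid, rose at least 23.4-fold (adjusted p = 0.00632). Il1rn and Mt2 were among the falls.

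Of 23 growth hormone and IGF genes 4 rose and 4 fell, against 4.41% and 6.84% of all genes. The rises numbered 2, 1, 4, 1 and 0 with each array left out, and the falls 3, 4, 2, 2 and 2. Igf1, the growth factor of postnatal liver, had levels of 6.44, 6.84 and 5.65 in PN21 livers, against 2.52 and 2.73 in PN0 livers (3.68, SE 0.86, adjusted p = 0.0117), above both litters in every PN21 sample, where Igf2 was below both. Igfals, the acid-labile subunit that holds IGFs in plasma, had levels of 1.88, 2.04 and -2.52 in PN21 livers, against -4.26 and -4.97 in PN0 livers. PN21 sample 3 lay over 4 below the other PN21 samples, and the rise was at least 13.5-fold (adjusted p = 0.0241). Prlr, the prolactin receptor, rose by 3.24 (adjusted p = 0.0237).

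Among genes that differ between the sexes in adult liver, 4 of 18 male-biased genes rose and 1 fell, and 7 of 19 female-biased genes rose and none fell, against 4.41% and 6.84% of all genes. The rises numbered 4, 4, 3, 4 and 1 with each array left out in the male-biased list and 4, 4, 7, 6 and 2 in the female-biased one. Mup3, a major urinary protein (chromosome 4), had levels of 1.95, 3.92 and 3.49 in PN21 livers, against -5.17 and -5.03 in PN0 livers, at least 85-fold higher (adjusted p = 0.000171). Mup1 rose at least 18.1-fold and Elovl3, a fatty acid elongase, at least 1.6-fold. The Mup genes are near-identical copies, and the second probe named for Mup3 gave 3.61. Among female-biased genes that rose were Slc22a26, a transporter (at least 18.5-fold), Fmo2 (4.50) and Cyp2b13. The PN21 livers were male. Xist, expressed from the inactive X chromosome of females, had levels of -4.50, -5.17 and -4.61 in PN21 livers, against -5.29 and 2.54 in PN0 livers, and the Y-linked Kdm5d levels of -1.68, -1.61 and -1.40 in PN21 livers, against -1.52 and -1.59 in PN0 livers. The 2 litters thus differed in Xist while Kdm5d lay within 0.3 over all 5 arrays. Other Y-linked genes were less even. Uty, not well above background in either litter, rose at least 2.995-fold (adjusted p = 0.0447, and 0.143 without sample 3). Ddx3y and Eif2s3y did not pass (adjusted p = 0.616 and 0.601). Their levels in PN21 sample 3 were -0.10 and -0.43, below those of the other 4 arrays.

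Of 16 hepatocyte markers none passed the test, with a median of 0.12, and 6 passed as higher without both arrays of low correlation. The median was 0.66 and 0.82 for PN21 samples 1 and 2, and -1.03 for sample 3, each against PN0. The largest differences were in the factors Foxa1 (1.61, SE 0.64, adjusted p = 0.115) and Foxa3 (1.34, SE 1.05, adjusted p = 0.386). The list's summed signal was 1808 to 6524 in PN21 livers, against 3261 to 3765 in PN0 livers, so the tissue's defining genes were present in all 5. The medians of the urea cycle, bile acid, lipogenesis, cholesterol, complement, acute phase, growth hormone and plasma protein lists were likewise negative for sample 3 alone. Read within the scan day, those lists have the opposite sign to samples 1 and 2, while the erythroid, platelet, neutrophil, cell cycle and fetal lists keep theirs. Kupffer cell and macrophage markers also changed sign (0.22, 0.29 and -1.62 for samples 1, 2 and 3). The within-day value rests on sample 3 alone, 1 mouse whose array correlated poorly. Scan day and that array cannot be told apart here. None of 35 oxidative phosphorylation genes passed (Sdhb 2.03, adjusted p = 0.182), and none of 19 clock genes (Per1 2.05, Nr1d1 1.86).

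Matrix genes fell in 6 of 35 members, against 6.84% of all genes. The falls numbered 4, 4, 3, 1 and 0 with each array left out and 1 with quantile normalization. Col5a1, a chain of the fibril collagen V, had levels of 0.54, 0.69 and 0.00 in PN21 livers, against 2.76 and 2.95 in PN0 livers (-2.44, SE 0.51, adjusted p = 0.00591), with a second probe at 0.57. The others named were Col5a2, its partner chain (-1.74, adjusted p = 0.012), Loxl2, a collagen cross-linking enzyme (-2.08, adjusted p = 0.0228, and 0.0719 without sample 3), and Fbln2, a fibulin (-2.00, adjusted p = 0.0376, and 0.0849 without sample 3). Genes of neighbouring tissues were looked at for tissue carried over in dissection. None of 26 muscle markers passed, the largest differences being in Myl1 (-3.37) and Myh2 (2.34). The muscle list's median was 0.49, 0.05 and 1.49 in PN21 samples 1, 2 and 3, and the gut list's 0.26, -0.08 and 1.58, so sample 3 was the highest in both. Of 23 pancreas markers Spink1 fell (-2.82), and none fell without PN0 litter 1. Of 11 gut epithelium markers 3 fell: Tff3 (-3.97), Krt20 (-3.65) and Lgals4 (-1.77), the last not without sample 3 (adjusted p = 0.086), and 1 member of the list fell without PN0 litter 2.

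Vitamin A genes were looked at by role. Of 47 retinoid genes 41 were measured. Of these 6 rose and 1 fell, against 4.41% and 6.84% of all genes, with a median of 0.87. The rises numbered 3, 4, 5, 4 and 0 with each array left out, and the falls 0, 0, 1, 1 and 0, so that none was called without PN0 litter 2. Without both arrays of low correlation 20 rose and 3 fell, and with quantile normalization 12 and 3, so how many members pass depends on the setting. Of the 6 rises 4 were in enzymes that oxidise retinol or retinal. Aldh1a1, a retinal dehydrogenase (chromosome 19), had levels of 5.03, 5.88 and 3.96 in PN21 livers, against 1.33 and 0.84 in PN0 livers (3.87, SE 0.91, adjusted p = 0.0126). Rdh16, a retinol dehydrogenase (chromosome 10), had levels of 2.38, 2.35 and 1.41 in PN21 livers, against -0.76 and -2.65 in PN0 livers (3.75, SE 0.65, adjusted p = 0.00166). Adh4, an alcohol dehydrogenase that takes retinol, had levels of 3.07, 3.81 and 2.64 in PN21 livers, against -0.42 and -0.34 in PN0 livers (3.56, SE 0.75, adjusted p = 0.00647). In the 3 genes every PN21 sample lay above both litters. Rdh9 rose by 2.89 (adjusted p = 0.0441). Other alcohol and retinol dehydrogenases of the list did not pass, among them Adh1 (1.89), Rdh10 (0.53), Rdh11 (-0.59) and Rdh14 (-1.20). The list holds many such enzymes, and their share of the rises was not set against their share of the list.

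Among binding proteins and receptors, Crabp1, a cytosolic retinoic acid binding protein, had levels of -1.96, -2.48 and -0.82 in PN21 livers, against -3.65 and -4.80 in PN0 livers, at least 2.9-fold higher (adjusted p = 0.0256, and 0.0891 without sample 3). Rxrg, a retinoid X receptor, had levels of 0.74, 1.48 and 0.39 in PN21 livers, against -1.36 and -3.27 in PN0 livers (3.18, SE 0.86, adjusted p = 0.0256). Rbp2, the cellular retinol binding protein known from the gut, was the single fall (-2.92, -4.74 and -1.03 in PN21 livers, against -0.07 and 2.76 in PN0 livers, -4.24, SE 1.27, adjusted p = 0.041), and its second probe gave -6.54. The other receptors did not pass: Rara 2.10, Rarb -0.50, Rarg 1.01, Rxra 0.49 and Rxrb -0.19, with adjusted p-values between 0.0621 and 0.819. Rara was not well above background in either litter. Other probes had the opposite sign for Rarb (1.47), Rxrb (2.05) and 1 of 3 for Rarg (-0.61). Rbp4, which carries retinol in plasma, had levels of 10.10, 10.44 and 8.80 in PN21 livers, against 10.01 and 9.72 in PN0 livers (-0.08, SE 0.76, adjusted p = 0.947), and Ttr, its partner transthyretin, a difference of 1.02 (adjusted p = 0.421). Lrat, which esterifies retinol for storage, gave 1.41 (adjusted p = 0.0616).

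Cyp26a1, which breaks down retinoic acid and is induced by it, had levels of -3.02, -3.34 and -1.85 in PN21 livers, against -3.96 and -4.46 in PN0 livers. It was not well above background in either litter and was so in 2 PN21 samples, with a difference of measured levels of 1.47 that did not pass (adjusted p = 0.151). Its promoter is shown because it holds the paired letters that RAR and RXR are known to bind, a direct repeat of AGNTCA with 5 bases between the copies, searched on both strands. Capitals mark the match.
Cyp26a1, chr19:37697658-37697807, plus strand: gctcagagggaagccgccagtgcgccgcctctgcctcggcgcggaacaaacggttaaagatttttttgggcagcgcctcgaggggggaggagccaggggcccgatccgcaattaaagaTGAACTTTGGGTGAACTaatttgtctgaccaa
The repeat lies at -32, and 64 of all 27025 windows hold it (0.237%). The gene was chosen for this match, so nothing is read from it about the list. On the sufficient diet the same probe had levels of -1.65, -1.41 and -1.87 on the 3 PN21 arrays of the sufficient pool, against -5.27 and -4.30 in the sufficient PN0 livers. The test of the difference between the diets did not pass (limma, adjusted p = 1.000).

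**Figure D3:**
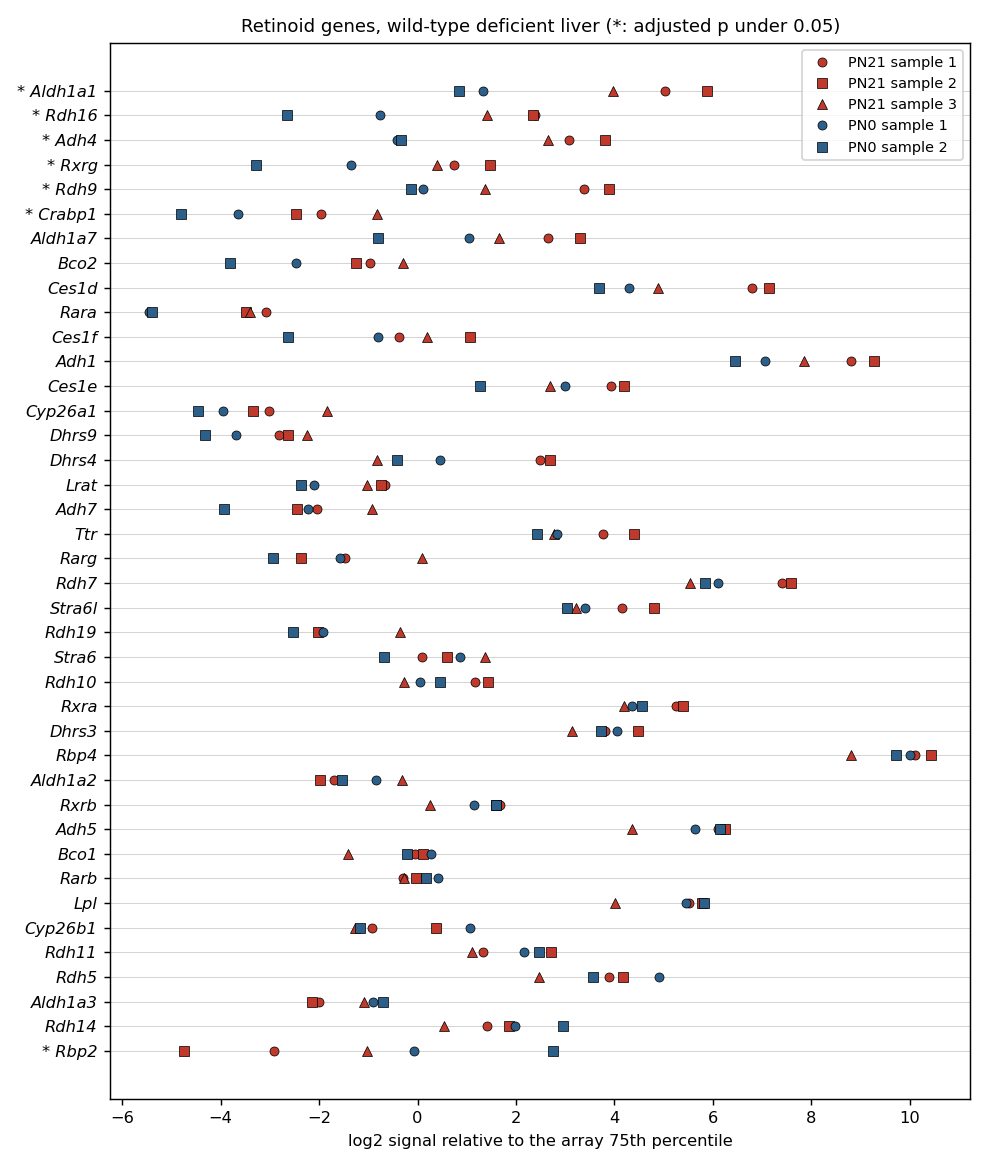
Levels of 40 of the 41 measured retinoid genes in wild-type deficient liver, as log2 signal relative to the array's 75th percentile, ordered by difference with the largest rise on top. Red symbols are PN21 samples 1 to 3, blue symbols PN0 litters 1 and 2, and an asterisk marks an adjusted p under 0.05. The top 6 genes rose, Rbp2 at the bottom fell, and for most genes between them the groups overlap.

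The same ages were then set beside those of the sufficient diet and of the Cyp1b1-null mice, which share no samples with the deficient wild type. In sufficient wild type, with 1 PN21 pool, 113 genes rose (0.551%) and 270 fell (1.32%), 1.87% in all. In deficient Cyp1b1-null livers 367 rose (1.79%) and 620 fell (3.02%), 4.81% in all. Of the 904 rises 889 (98.3%) had the same sign on the sufficient diet and 823 (91.0%) in the null, and of the 1403 falls 1400 (99.8%) and 1379 (98.3%). Over 20520 genes the age differences correlated at 0.871 with those of the sufficient diet and at 0.610 with those of the null. These correlations are a description of genes that are not independent. The share of all genes with the same sign was not counted, so the shares of the called genes stand without a background. The sufficient arrays shared slides 1, 2 and 3 at PN21, slide 5 at PN0 and the scan days with the deficient wild type. The null arrays lay on slides 4 and 6, on a scan day with no wild-type array. Shares of the same sign and correlations therefore cannot be read as diet against genotype. Of the genes called in sufficient liver 102 of 113 rises (90.3%) and 268 of 270 falls (99.3%) were also called here, or 11.3% and 19.1% of the calls in deficient liver. Of those called in the null 220 of 367 rises (59.9%) and 440 of 620 falls (71.0%) were shared, 24.3% and 31.4% of the calls in deficient wild type.

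The age effect did not differ between the diets for any gene by limma at an adjusted p under 0.05, with 88 of 20520 genes at an unadjusted p under 0.05. Of the alternatives, 1 gene passed when slide was a random block, and 1 when the sufficient pool's arrays were taken as 3 samples. Among the genes of smallest p, Ren2, a renin gene, had levels of -4.83, -5.45 and -4.02 in PN21 livers, against -3.58 and -2.85 in PN0 livers on the deficient diet, and of -0.60, -0.31 and 0.80 on the 3 PN21 arrays of the sufficient pool, against -4.60 and -4.84 in the sufficient PN0 livers. It was not well above background on any PN21 array of the deficient diet, so no size is given for the difference between the diets (adjusted p = 0.486). Ppp1r3g, whose levels on the deficient diet are given above, had levels of 1.15, 1.52 and 2.54 on the 3 PN21 arrays of the sufficient pool, against 1.66 and 1.02 in the sufficient PN0 livers, and the difference of age effects was -4.77. Ren1, Mup4, Cyp2s1 and Dmbt1 followed, each with an adjusted p of 1.000. Hamp, given here after its values were seen, had levels of 3.32, 3.73 and 5.23 on the 3 PN21 arrays of the sufficient pool, against 6.97 and 6.86 in the sufficient PN0 livers, an age difference of -2.83. On the deficient diet its fall is known only as a lower bound, so the difference between the diets has no size, and its test did not pass (unadjusted p = 0.01, adjusted p = 1.000). Its neighbour copy Hamp2 had levels of 1.33, 0.23 and -1.29 in PN21 livers, against -2.94 and -2.96 in PN0 livers on the deficient diet, and of 5.59, 5.91 and 6.96 on the 3 PN21 arrays of the sufficient pool, against -1.48 and -4.15 in the sufficient PN0 livers. The difference for Hamp2 did not pass either (adjusted p = 1.000), and the PN21 arrays of the sufficient pool were above every PN21 sample of the deficient diet in both genes.

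The list medians of the 3 settings stood side by side as follows. For cell cycle genes the median was -3.42 on the deficient diet, -2.10 on the sufficient diet and -2.30 in the null. The falls numbered 39, 2 and 13 in that order, where 6.84%, 1.32% and 3.02% of all genes fell. These counts are not comparable between settings, since the sufficient diet had 1 PN21 pool. Erythroid medians were -3.44 on the deficient diet, -3.56 on the sufficient diet and -3.86 in the null. Neutrophil medians were -5.77, -6.52 and -6.71 in the same order, and fetal liver medians -1.80, -2.11 and -1.77. Mki67 gave -5.21, -3.46 and -3.39, with a diet difference of -1.75 that did not pass (adjusted p = 1.000). P450 medians were 1.35, 0.92 and 1.60, and retinoid medians 0.87, 0.90 and 1.08. No test of a difference between these medians was made.

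**Figure D4:**
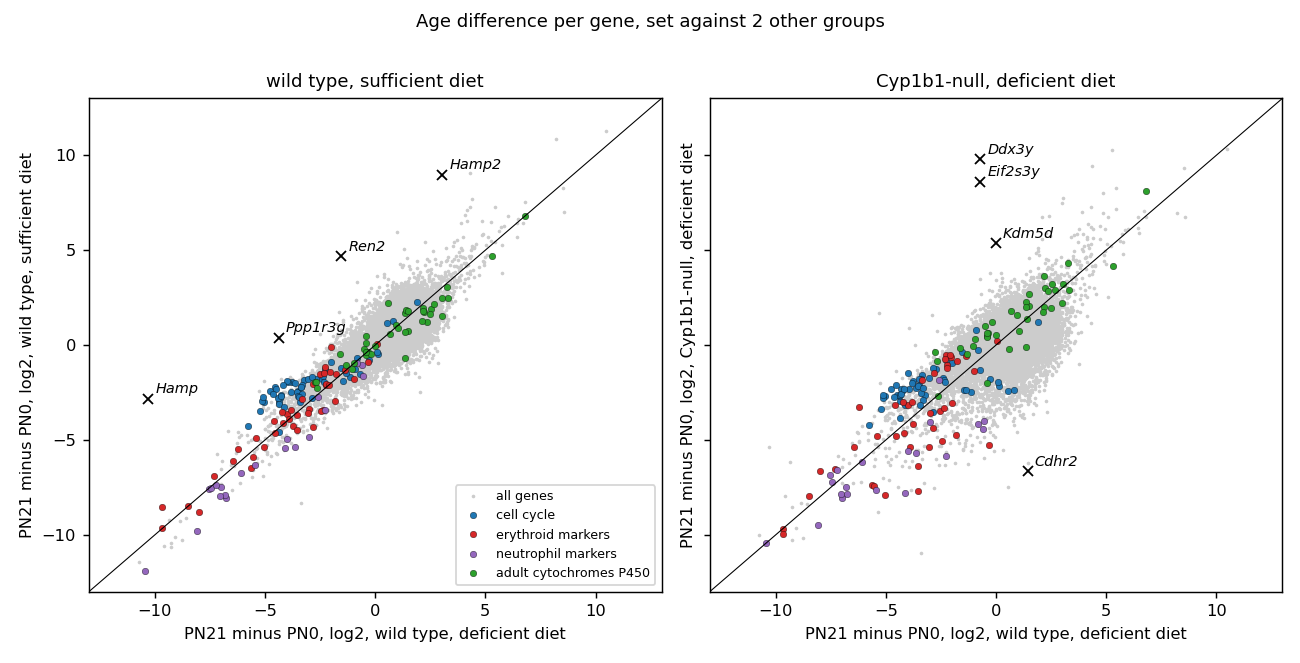
Age difference of measured levels of each gene (PN21 minus PN0, log2) in wild-type deficient liver on the horizontal axes, against wild-type sufficient liver (left) and Cyp1b1-null deficient liver (right) on the vertical axes. Grey points are all 20520 genes, coloured points 4 gene lists, crosses named genes, and the line marks equal differences. Blood cell genes lie low on both axes, cell cycle genes lie above the line more than below it, and Hamp, Ppp1r3g and Ren2 lie off the line on the left, none passing the test of the difference.

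Against the Cyp1b1-null mice on the same diet the age effect differed for 5 genes, 1 higher (0.00487%) and 4 lower (0.0195%) in wild type minus null (0.0244% in all), with 1069 genes at an unadjusted p under 0.05. With quantile normalization, and with normexp and quantile normalization, none of the 5 passed and 0 genes were called (836 and 648 at an unadjusted p under 0.05). Kdm5d, Ddx3y and Eif2s3y are Y-linked. Kdm5d, a histone demethylase, had levels of -1.68, -1.61 and -1.40 in PN21 livers, against -1.52 and -1.59 in PN0 livers in wild type. In the null it had levels of -1.84 and -1.99 in PN21 livers, against -7.09 and -7.49 in PN0 livers, so that only the null litters were low. Ddx3y, an RNA helicase, differed by -10.50 (adjusted p = 0.0215) and Eif2s3y, a translation factor subunit, by -9.34 (adjusted p = 0.0369), and Kdm5d by -5.38 (adjusted p = 0.000564). Xist in the null had levels of -7.34 and -7.42 in PN21 livers, against 3.69 and 3.42 in PN0 livers. The Y-linked genes were not well above background in the null litters, so their differences are of measured levels and are not bounds. Ddx3y in the null had levels of 2.05 and 2.03 in PN21 livers, against -7.84 and -7.65 in PN0 livers. In Eif2s3y too only the null litters were low, and the null PN21 males were not. The sex of the pups was not stated, and its part in these differences was not tested. The null arrays shared no slide or scan day with the wild type, so genotype and slide cannot be told apart here. The positive difference was in Cdhr2, a cadherin-related protein (8.08, adjusted p = 0.0369), with wild-type levels of -1.94, -2.94 and -0.48 in PN21 livers, against -2.80 and -3.62 in PN0 livers and null levels of -7.40 and -7.52 in PN21 livers, against -0.67 and -0.94 in PN0 livers. Cdhr2 did not pass between the ages in wild type (1.43, adjusted p = 0.258) and fell in the null (adjusted p = 0.000361), where it was not well above background at PN21. Next came Ifi202b, an interferon-inducible gene (adjusted p = 0.0604), and Olfr470 (adjusted p = 0.076), which was not above background on any deficient wild-type array. Without the 2 arrays of low correlation 115 genes passed (0.560%), 94 higher (0.458%) and 21 lower (0.102%), and without PN21 sample 3 alone 2. Without PN21 sample 1 the count was 2, without PN0 litter 1 it was 1, and without PN21 sample 2 or PN0 litter 2 it was 3.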

How the data were processed

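The 24 arrays of the study, in 10 groups, were read from the scanner files. Per the file headers, the authors extracted 1-colour arrays with Agilent Feature Extraction 10.7.3.1, on a probe design of mouse build mm9, which gives a background-subtracted intensity. The submitters' processing notes name Agilent Feature Extraction and limma, with no limma version. The intensity in the deposited series table equals the scanner files' within a relative difference of 0.00497. From these, log2 of the intensity minus each array's 75th percentile was taken. Control spots and 2048 spots marked as outliers did not enter, and the mean of repeat spots was used for each probe. Probes were named through the RefSeq accessions (27902), symbols (5449) or synonyms (370) of the GRCm38.p6 table, and 7453 kept the file's name. A probe well above background on all arrays of at least 1 group was measured (30903 probes), and the probe of highest mean signal stood for a gene (20520 genes).

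Group means were fitted with limma 3.58.1 in R 4.3.3 over 22 samples, the 3 arrays of the sufficient PN21 pool averaged into 1, with 12 residual and 3.95 prior degrees of freedom. Calls have a Benjamini-Hochberg adjusted p under 0.05. The fit was also run on simulated arrays with known differences, in which the noise of a gene had the same spread on every array. That simulation held no array of low correlation, so it cannot show how the calls depend on single arrays. A lower bound on a fold divides the brighter group's mean by that of the dim group, where each dim array is given its own value or its lowest detected signal, whichever is higher.

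The comparison, the gene lists and the alternatives were chosen with earlier results of these data known. Named genes are the 10 largest called rises and falls with a gene symbol, up to 4 called members per list (or the 2 largest differences), the retinoid list, and the 6 genes of smallest p per test of a difference, and a few of these are not reported here. Promoter sequences are RefSeq's, and Ahsp and Serpina6 had none in the table used. Replicate numbers were not used to pair the samples. Same-numbered PN21 and PN0 samples correlated at -0.25 and 0.37. With 2 PN0 litters, whose deviations from their mean mirror each other, these values cannot show or exclude a pairing. Alternatives changed normalization, filters, blocks and the arrays left out.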

Additional observations from a re-analysis of the deposited data

Results flagged for a closer look

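In 5 genes the age effect differed between deficient wild-type and deficient Cyp1b1-null livers by the test of the difference itself (limma, adjusted p under 0.05), and in 0 with quantile normalization, with or without normexp (836 genes at an unadjusted p under 0.05 without normexp, 648 with it). The differences of age effects, wild type minus null, were -5.38 for Kdm5d, -10.50 for Ddx3y and -9.34 for Eif2s3y, all Y-linked. They were -4.38 for a probe that the files name by the transcript ENSMUST00000131216 and 8.08 for Cdhr2. Kdm5d had levels of -1.68, -1.61 and -1.40 in PN21 livers, against -1.52 and -1.59 in PN0 livers in wild type, and of -1.84 and -1.99 in PN21 livers, against -7.09 and -7.49 in PN0 livers in the null. The transcript's probe had levels of 0.86, 1.31 and 1.51 in PN21 livers, against -0.32 and -2.06 in PN0 livers in wild type, and of 1.10 and 0.91 in PN21 livers, against -6.0 and -5.57 in PN0 livers in the null. All but Cdhr2 were not well above background in the null litters, so the sizes are of measured levels. Groups of 3 and 2 arrays are too small for a test of single outlying samples.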

How the results depend on the processing

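Every named gene that passed kept its direction under all alternatives run, and 113 were followed. Between 0 and 60 of them lost their call in any 1 alternative, 60 without PN0 litter 2, 32 without PN0 litter 1, 24, 18 and 17 without PN21 samples 1, 2 and 3, and 23 with the 2 groups fitted alone. The reversed value was that of Rbp4, -0.08 in the report and 0.51 (adjusted p = 0.0325) without both arrays of low correlation under quantile normalization. Between PN21 and PN0, 2307 genes were called. Normexp with quantile normalization called 2371, of which 1403 were among the 2307, quantile normalization 2012 (1234 shared), the mean of the probes 2184 (1808 shared) and no filter on dim probes 1802 (1772 shared). Larger shifts were 875 with the 2 groups alone, 7347 without the R-Cyp1b1-null array, 6973 without both arrays of low correlation (6970 with quantile normalization), 8993 with array weights and 5340 with scan day as a block. Leaving out 1 sample gave 484 to 1870. The share of calls that were higher, 39.2%, was 28.2% with normexp, 50% with the mean of the probes, 52.2% with array weights and 25.6% without PN0 litter 2. Quantile normalization moved the median of all genes to -0.04, against 0.18 in the main setting.

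The diet difference had 1 call with slide as a random block and 1 with the pool's arrays as 3 samples, against 0 otherwise. Against the 5 calls of the genotype difference, other settings gave 0 with normexp, 0 with quantile normalization, 2 without the dim filter, 8 with the mean of the probes, 65 without the R-Cyp1b1-null array, 115 without both arrays (27 with quantile normalization), 2625 with array weights, 3 with slide as a block and 32 with scan day as a block. Leaving out 1 sample gave 1 to 3. The causes of these shifts were not tested. With a replicate block, 3470 genes passed between PN21 and PN0 and 122 in the genotype difference. The numbers were not taken as pairs in the main fit. Same-numbered samples correlated at -0.25 and 0.37, which with 2 PN0 litters cannot decide whether they pair. In the deficient wild type the PN21 numbers also run with slides 1, 2 and 3. Of the list medians under the alternatives 680 stayed within the spread between the PN21 samples and 60 did not. The medians of the cholesterol, lipogenesis, urea cycle, complement, acute phase, growth hormone and hepatocyte lists turned negative with scan day as a block, and those of oxidative phosphorylation and gluconeogenesis positive with quantile normalization. Signal over background limits the low side: 478 rises start from genes not above background in any PN0 litter. Few pools and litters limit precision.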
